A study of Mus musculus with 40 samples.

Results

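The genes described here are Trp53, which encodes the mouse tumour suppressor p53, and 9 genes whose transcription p53 is known to raise: Cdkn1a, Trp53inp1, Btg2, Mdm2, Ccng1, Phlda3, Sesn1, Aen and Zmat3. They were picked by name, as known p53 genes, with earlier results of these data already known. All 10 were found by symbol in each of the 3 deposited count tables, among 23284 genes in the pI-pC and antibody table and 23107 genes in each tamoxifen table. The 40 RNA-seq libraries form 12 groups and come from C57BL/6 mouse thymocytes sorted at either of 2 stages, double-negative 3 cells (DN3) and the less mature early T-cell precursors (ETP). Each stage held the same 3 treated-control pairs, which ask how these genes respond to loss of Zmiz1 or to a block of Notch1.

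In the first pair, Zmiz1f/f mice carrying MxCre (DeltaMxCre) and mice with MxCre alone (MxCre) both received 5 injections of 40 mcg pI-pC, 2 days apart, and cells were sorted 8 weeks later from 3 mice per group. MxCre is driven by an interferon-responsive promoter that is active in many cell types, so the deletion is not limited to thymocytes. In the second pair, Rosa26CreERT2 Zmiz1f/f mice (DeltaTamCre) and Rosa26CreERT2 mice (TamCre) both received tamoxifen at 0.2 mg/g, and cells were sorted after 43 to 44 hours from 4 mice per group. Rosa26CreERT2 is likewise present in most tissues. In the third pair, the receptor Notch1 was blocked with 10 mg/kg of an antibody to its negative regulatory region (AntiNRR), or isotype control IgG (IgG) was given, 24 hours before sorting. Each antibody group held 3 libraries, and the labels do not say whether each came from a separate mouse, so p-values there measure only the spread between these libraries, which may be technical. The labels give no age.

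p53 is a transcription factor that is held at a low protein level by Mdm2, a ubiquitin ligase whose gene is itself a p53 target, and much of its control acts on the protein and not on its mRNA. When DNA is damaged or growth signals fail, stabilised p53 raises genes that stop the cell cycle, repair DNA, buffer oxidants or drive death. In the thymus, p53 restrains DN3 cells that have not made a working pre-T-cell receptor. ZMIZ1, the human form of the deleted gene, has been described as a co-activator of p53, and the mouse protein as a direct cofactor of Notch1.

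p53 binds DNA at pairs of a 10-base element, called here the p53 decamer. Promoters were available from RefSeq (GRCm38.p6, 250 bases before to 50 after each annotated start) for 8 of the 10 genes, with 11 promoters in all. Trp53inp1 and Zmat3 have no entry. At least 1 match to the p53 decamer, whose pattern is the same on both strands, stood in a promoter of 6 of these 8 genes, against 2582 of all 27025 genes in the table (9.55%). Promoters of the cell cycle inhibitors Cdkn1a and Btg2, which rose after the antibody in DN3 cells, are shown with that of Mdm2, the feedback inhibitor, which did not pass the test. Capitals mark the decamer matches. The first Cdkn1a promoter lies at chr17:29090729-29091028 (plus strand), the second at chr17:29093519-29093818 (plus strand), that of Btg2 at chr1:134079106-134079405 (minus strand) and that of Mdm2 at chr10:117710709-117711008 (minus strand).
Cdkn1a, first start: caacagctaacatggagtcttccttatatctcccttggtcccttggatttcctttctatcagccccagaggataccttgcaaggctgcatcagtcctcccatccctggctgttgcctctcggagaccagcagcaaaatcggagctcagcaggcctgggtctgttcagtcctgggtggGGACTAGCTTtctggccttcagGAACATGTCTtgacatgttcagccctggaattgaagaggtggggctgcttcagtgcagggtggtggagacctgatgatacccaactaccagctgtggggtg
Cdkn1a, second start: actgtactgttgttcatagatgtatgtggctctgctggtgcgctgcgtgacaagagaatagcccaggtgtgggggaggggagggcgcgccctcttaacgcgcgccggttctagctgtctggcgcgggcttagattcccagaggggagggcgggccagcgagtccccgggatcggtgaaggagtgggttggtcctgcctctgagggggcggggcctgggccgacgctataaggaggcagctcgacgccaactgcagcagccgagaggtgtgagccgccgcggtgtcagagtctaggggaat
Btg2: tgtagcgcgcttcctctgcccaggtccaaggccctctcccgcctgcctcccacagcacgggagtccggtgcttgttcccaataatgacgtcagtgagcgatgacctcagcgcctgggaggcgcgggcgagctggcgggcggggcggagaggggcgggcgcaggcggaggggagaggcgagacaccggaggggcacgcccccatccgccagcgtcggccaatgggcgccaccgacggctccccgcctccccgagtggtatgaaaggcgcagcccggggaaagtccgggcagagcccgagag
Mdm2: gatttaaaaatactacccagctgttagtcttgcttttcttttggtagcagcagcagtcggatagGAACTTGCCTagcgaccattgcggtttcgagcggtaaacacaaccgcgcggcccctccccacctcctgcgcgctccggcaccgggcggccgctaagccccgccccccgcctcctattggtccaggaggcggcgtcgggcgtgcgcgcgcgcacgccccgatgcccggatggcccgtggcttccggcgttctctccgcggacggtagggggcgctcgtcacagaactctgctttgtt
The first Cdkn1a promoter held 2 matches, the Mdm2 promoter held 1, and the second Cdkn1a promoter and that of Btg2 held 0. No match says only that the pattern is not in this window. A match is to 1 decamer and not to the pair, and does not show that p53 binds there. Promoters of Trp53, Ccng1 and the second start of Sesn1 each held 1 match, and the overlapping promoters of the 2 Aen starts shared 1, which makes 7 distinct matches.

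Libraries of tamoxifen DN3 held 48127197 to 91659598 counts, those of tamoxifen ETP 17418638 to 30975324, and those of the table shared by pI-pC and antibody 9456818 to 23962395. The 3 sets came from different kits, and no test joins them. Levels are given as CPM, counts brought to a common library size after TMM scaling within a table. Counts per gene of Zmiz1, which include exons outside the floxed part, were lower in every deleted library than in every control of its comparison, at 113 to 129 against 286 to 349 CPM in pI-pC DN3 and 184 to 243 against 301 to 354 CPM in tamoxifen DN3. Dtx1, a Notch target, was at 4.82 to 15.3 CPM in AntiNRR DN3 and at 156 to 185 CPM in IgG DN3. The labels give the DN3 gate as CD44+ CD25-, which is not the usual DN3 phenotype, but the summed level of 12 DN3 markers was 8253 to 12851 CPM in the DN3 libraries of the pI-pC and antibody table and 3059 to 6431 CPM in its ETP libraries. The summed level of 11 ETP markers was 106 to 237 CPM in those DN3 libraries and 390 to 1476 CPM in the ETP libraries. In bulk samples like these, a change in how many cells of a kind were sorted and a change in RNA per cell cannot be told apart.

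Of the 10 genes, 3 rose in DN3 cells after the Notch1 block, by edgeR's quasi-likelihood test at an adjusted p under 0.05 over all genes. They were Cdkn1a, Trp53inp1 and Btg2, and 0 fell. In this comparison 5.61% of the 12658 genes tested were called, 2.65% as higher, and leaving out 1 library brought the 710 calls to between 351 (without IgG DN3 3) and 677. Groups did not overlap for 5 of the 10 genes, 3 higher and 2 lower, against 22.4% of all genes.

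Cdkn1a encodes p21, the cyclin-dependent kinase inhibitor through which p53 halts the cycle in G1. It stood at 62.2, 46.9 and 40.8 CPM in the AntiNRR DN3 libraries and at 29.0, 29.4 and 27.7 CPM in the IgG DN3 libraries. Every treated library was above every control, and the treated libraries spread much more widely (49.97 ± 11.1 against 28.7 ± 0.862, SD, n = 3 each). The log2 fold change was 0.79 (SE 0.203, 95% interval 0.37 to 1.21, edgeR adjusted p = 0.0209). The call was lost without any 1 of IgG DN3 1, 2 or 3 or AntiNRR DN3 1, with an edgeR adjusted p between 0.0667 and 0.138, and the fold change without AntiNRR DN3 1 was 0.60. The gene model AC167363.2 on the opposite strand overlaps 273 exon bases of Cdkn1a, and strand use in the counting was not stated.

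Trp53inp1 encodes a p53-induced nuclear and autophagosomal protein that favours p53 phosphorylation and cell death. Its level was 1334, 1100 and 1107 CPM with AntiNRR and 789, 721 and 751 CPM with IgG. The lowest treated library was far above the highest control. The rise was 0.63 on the log2 scale (SE 0.0933, 95% interval 0.44 to 0.83, edgeR adjusted p = 0.000109), and the call stayed when any single library was left out.

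Btg2 encodes an antiproliferative protein that recruits the deadenylase complex to mRNAs and is a classical p53 target in thymocytes. It was at 395, 346 and 299 CPM with AntiNRR and at 254, 246 and 237 CPM with IgG. The groups did not overlap, and the controls lay within a narrow band. It rose by 0.48 on the log2 scale (SE 0.105, 95% interval 0.26 to 0.70, edgeR adjusted p = 0.00615). Without IgG DN3 3 the edgeR adjusted p was 0.0572.

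The other 7 genes did not pass the test in DN3 cells after the antibody. Aen, a nuclease that takes part in p53-dependent death, was at 28, 29.7 and 35.2 CPM with AntiNRR and at 42.1, 49.7 and 39.7 CPM with IgG. Its groups did not overlap in the lower direction, with a log2 fold change of -0.51 (SE 0.200, edgeR adjusted p = 0.161). Mdm2 had a log2 fold change of 0.10 (95% interval -0.19 to 0.38), Ccng1, a cyclin-like regulator of Mdm2, 0.14 (-0.16 to 0.43), and Sesn1, a stress-induced inhibitor of mTORC1, 0.07 (-0.26 to 0.40). Zmat3, an RNA-binding p53 effector, was at 14.9, 20.6 and 21.1 CPM with AntiNRR and 14.0, 14.3 and 16.1 CPM with IgG, and the groups overlapped. Phlda3 was low, with means of 2.05 CPM with AntiNRR and 3.17 CPM with IgG, and its groups overlapped. Its log2 fold change was -0.64, and -1.51 to -0.25 with 1 library left out. Trp53 itself was at 96.3, 94.0 and 85.3 CPM with AntiNRR against 119, 98.9 and 103 CPM, with a log2 fold change of -0.23 (SE 0.129, edgeR adjusted p = 0.387).

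Other measures differed between the same DN3 libraries, and their part in the 3 rises was not tested. The summed level of 25 S-phase genes was 1841, 2153 and 2858 CPM with AntiNRR and 2951, 2976 and 2662 CPM with IgG, while the sum of 25 mitosis genes was 515, 793 and 1943 CPM against 945, 1065 and 969 CPM. The sum of 12 DN3 markers was lower with AntiNRR (10297 to 11597 against 12187 to 12851 CPM) and that of 11 ETP markers higher (198 to 237 against 139 to 158 CPM), both without overlap, and among the latter Cd34, Hoxa9, Lmo2 and Lyl1 were at 0 in all 3 AntiNRR libraries and Flt3 in all 3 IgG libraries. The sum of 11 natural killer and innate lymphoid markers was 260, 235 and 232 CPM with AntiNRR and 156, 142 and 127 CPM with IgG. Most of that sum was Gzma, at 233, 208 and 212 CPM against 130, 119 and 106 CPM, while Gzmb, Klrb1c, Klrd1 and Ncr1 were at 0 in all 6 libraries. Sums of 11 dendritic markers (162 to 177 against 142 to 160 CPM), 12 thymic stroma markers (433 to 478 against 407 to 424 CPM) and 18 immediate early and handling-response genes (330 to 380 against 213 to 323 CPM) were also higher without overlap. Of the stroma markers, 7 were at 0 in all 3 IgG libraries, among them Foxn1, Krt5 and Krt8, so that sum came from the other stroma markers. Ribosomal precursor RNA (Rn45s) took 4.77 to 6.80% of the counts with AntiNRR and 2.75 to 3.74% with IgG. With a spread estimated from all 8 groups of the table in place of these 2, the edgeR adjusted p became 0.541 for Cdkn1a, 0.392 for Trp53inp1 and 0.744 for Btg2, with log2 fold changes of 0.80, 0.65 and 0.49, and 0.480% of all genes were called.

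**Figure D1:**
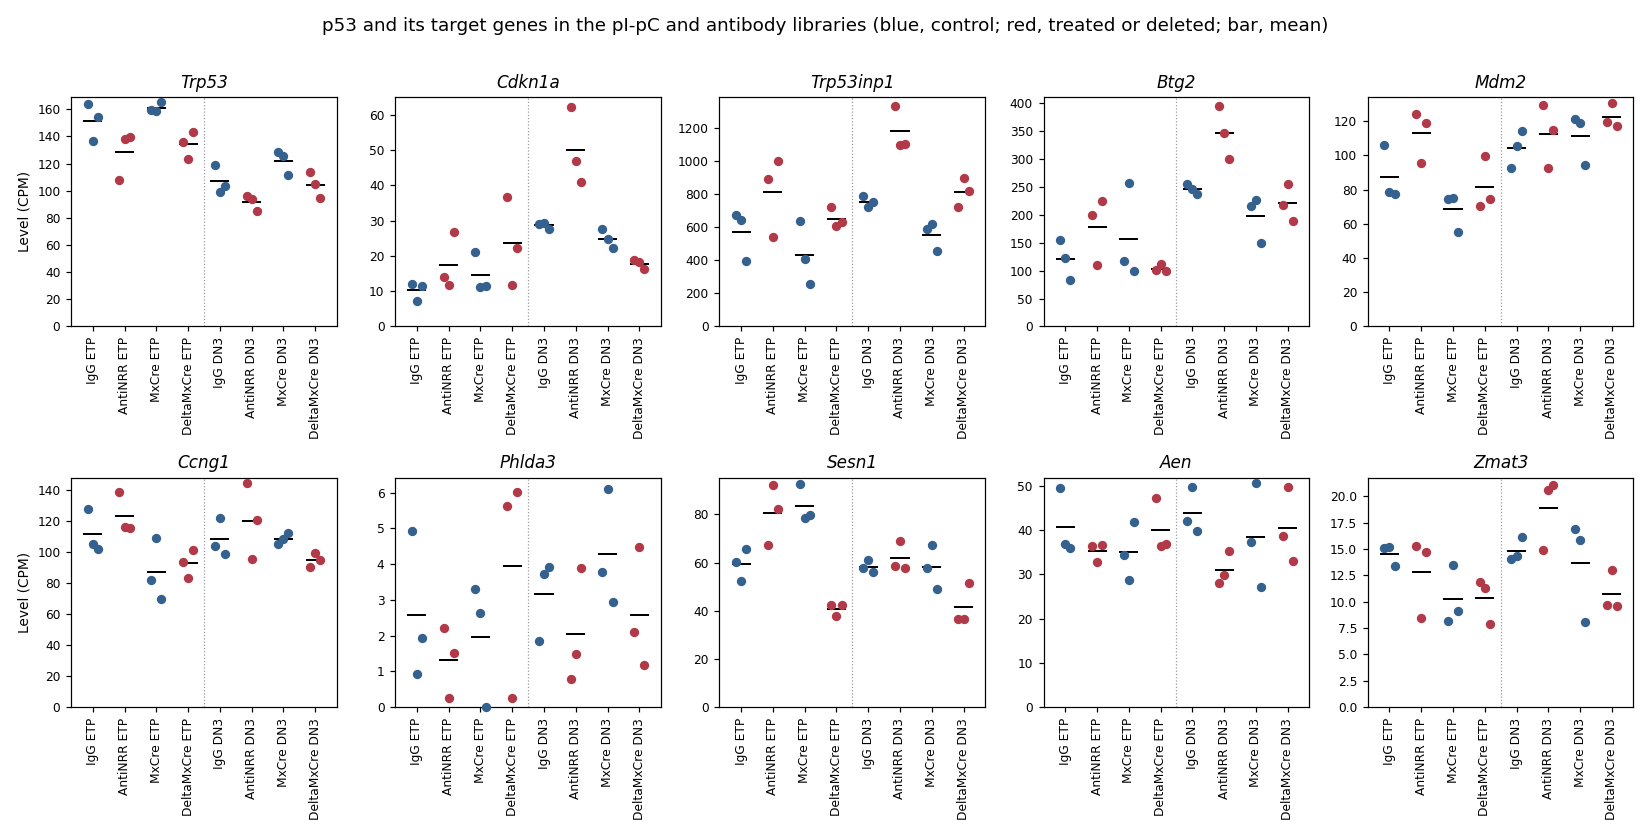
Level in CPM (y axis, from 0, a scale of its own for each gene) of the 10 genes in each library of the 8 pI-pC and antibody groups (x axis), with 1 point per library, control groups in blue, treated or deleted groups in red and the group mean as a bar. The AntiNRR DN3 points of Cdkn1a (40.8 to 62.2), Trp53inp1 (1100 to 1334) and Btg2 (299 to 395) lie above all IgG DN3 points.

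In ETP the antibody gave 0 calls among the 10 genes by edgeR, which called 0 of 12568 genes (0%), and 0 by DESeq2 (0.141% of all genes). An unadjusted p under 0.05 was found for 1 of the 10 and for 5.47% of all genes. Cdkn1a was at 14.1, 11.8 and 26.6 CPM with AntiNRR and 11.9, 7.31 and 11.4 CPM with IgG. AntiNRR ETP 3 alone stood well above the controls. Trp53inp1 was at 891, 544 and 1003 CPM against 673, 643 and 398 CPM, and Btg2 at 199, 111 and 225 CPM against 155, 122 and 82.2 CPM. For both genes AntiNRR ETP 2 lay inside the control range, and that library also had the highest sum of 12 myeloid markers (527 CPM, the other ETP libraries of this comparison 92.6 to 363). The log2 fold changes were 0.77 for Cdkn1a (SE 0.433, 95% interval -0.15 to 1.69), 0.51 for Trp53inp1 (SE 0.241, -0.01 to 1.03) and 0.57 for Btg2 (SE 0.274, -0.02 to 1.17). The difference between the stages was -0.04 for Cdkn1a (SE 0.429), -0.14 for Trp53inp1 (SE 0.277) and 0.07 for Btg2 (SE 0.323). Sesn1 was higher in every AntiNRR ETP library (67.1, 92.3 and 82.1 CPM) than in every IgG ETP library (60.1, 52.2 and 65.5 CPM), with a log2 fold change of 0.44 (SE 0.205, edgeR adjusted p = 0.907). Groups did not overlap for 11.8% of all genes.

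After pI-pC deletion of Zmiz1, 0 of the 10 genes passed edgeR's test in DN3 cells, where 1.44% of 12675 genes were called. Those 183 calls became between 12 (without DeltaMxCre DN3 3) and 403 (without MxCre DN3 3) when 1 library was left out. An unadjusted p under 0.05 was found for 3 of the 10 and for 16.1% of all genes, and DESeq2 called 1, Trp53inp1, with 3.48% of all genes. Trp53inp1 was at 721, 897 and 820 CPM in DeltaMxCre DN3 and at 587, 618 and 458 CPM in MxCre DN3. All deleted libraries were above all controls. The log2 fold change was 0.55 (SE 0.141, 95% interval 0.25 to 0.85), with an adjusted p of 0.0647 by edgeR and 0.00860 by DESeq2. Over all alternatives run, the adjusted p ran from 0.00860 to 0.639.

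Cdkn1a was lower in each DeltaMxCre DN3 library, at 18.8, 18.3 and 16.3 CPM, than in each MxCre DN3 library, at 27.6, 24.8 and 22.2 CPM. This gave a log2 fold change of -0.48 (SE 0.226, 95% interval -0.96 to -0.00051, edgeR adjusted p = 0.310). Sesn1 was at 36.7, 36.6 and 51.7 CPM against 57.6, 67.3 and 49.2 CPM, and DeltaMxCre DN3 3 overlapped the controls. Its log2 fold change was -0.48 (SE 0.190, edgeR adjusted p = 0.227). Ccng1 was also lower in all deleted libraries (90.4 to 99.4 against 105 to 113 CPM) with a log2 fold change of -0.20 (SE 0.131). Groups did not overlap for 3 of the 10 genes, 1 higher and 2 lower, against 21.6% of all genes. MxCre DN3 3, the lowest library of its group for 9 of the 10 genes (all but Ccng1), had the highest sums of S-phase genes (6260 CPM, the other 5 libraries 3490 to 4473) and of mitosis genes (5569 CPM, the others 1843 to 3437). Without it the log2 fold change of Btg2 was -0.0019 in place of 0.16, and that of Trp53inp1 was 0.43.

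Several marker sums separated the DeltaMxCre DN3 from the MxCre DN3 libraries without overlap. Of 22 type I interferon response genes, 20 had a log2 fold change above 0, with a median of 0.74 against -0.01 for all genes, and edgeR called 0 and DESeq2 4 of them, while their summed level was 746 to 990 CPM against 633 to 670 CPM. The sum of DN3 markers was lower in the deleted libraries (8253 to 9130 against 9836 to 11545 CPM). Sums of 9 double-positive markers (2037 to 2635 against 1587 to 1811 CPM), 8 mature T-cell markers (864 to 1195 against 599 to 776 CPM) and 12 thymic stroma markers (445 to 559 against 293 to 405 CPM) were higher. Of these, 7 stroma markers, among them Foxn1, Krt5 and Krt8, were at 0 in all 3 deleted libraries, and 0 of the double-positive and mature T-cell markers were. Rn45s took 4.71 to 5.07% of the counts against 6.76 to 8.82%, and Malat1, a nuclear RNA, 0.961 to 1.33% against 0.324 to 0.711%. The part of these measures and of cell cycle state in the values of Trp53inp1, Cdkn1a and Sesn1 was not tested.

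In ETP, pI-pC deletion gave 0 calls among the 10 genes by edgeR, while 0.0416% of 12010 genes were called, and 1 of the 10 (5.56% of all genes) had an unadjusted p under 0.05. The gene was Sesn1, at 42.5, 37.7 and 42.5 CPM in DeltaMxCre ETP and at 92.4, 78.4 and 79.7 CPM in MxCre ETP. The groups were far apart and each was narrow. The log2 fold change was -1.03 (SE 0.245, 95% interval -1.56 to -0.50), with an adjusted p of 0.386 by edgeR and 0.0345 by DESeq2, which called 0.739% of genes. With the spread of all 8 groups the edgeR adjusted p was 0.00362, and 1.22% of all genes were called. Over all alternatives it ran from 0.00362 to 0.988. The same libraries differed in markers of stage. The sum of ETP markers was 390 to 499 CPM in DeltaMxCre ETP and 802 to 1107 CPM in MxCre ETP, and that of DN3 markers was 5517 to 6059 CPM against 3479 to 4600 CPM. The sum of natural killer and innate lymphoid markers was lower (127 to 172 against 222 to 528 CPM). Among these markers only Gzma did not overlap, at no more than 30.8 CPM in DeltaMxCre ETP and no less than 53.9 CPM in MxCre ETP. Gzma was also at 85.4 to 187 CPM in MxCre DN3. Nkg7 was at 70.3, 50.4 and 44.5 CPM in DeltaMxCre ETP and at 31.3, 53.1 and 54.7 CPM in MxCre ETP. The highest sum, in MxCre ETP 2, included Il2rb at 152 CPM. The sum of dendritic markers was lower as well (131 to 145 against 177 to 198 CPM). Sums of double-positive markers (1168 to 1427 against 739 to 1145 CPM) and of 8 erythroid markers (13.8 to 15.7 against 4.30 to 10.1 CPM) were higher. Of the erythroid markers, Hba-a1, Hba-a2 and Slc4a1 were at 0 in all 6 libraries. Sesn1 itself was higher in MxCre ETP than in MxCre DN3, without overlap and uncalled, as given with the stage comparison. The part of a shift in stage or in other cells in the value of Sesn1 was not tested. A gene model on the same strand, 9930024M15Rik, lies within Sesn1 but shares 0 exon bases with it.

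The other ETP values spread widely. Trp53inp1 was at 720, 607 and 629 CPM in DeltaMxCre ETP and at 636, 409 and 255 CPM in MxCre ETP, with a log2 fold change of 0.59 (SE 0.278, edgeR adjusted p = 0.897). Cdkn1a was at 36.7, 11.7 and 22.3 CPM against 21.2, 11.3 and 11.4 CPM, and the groups overlapped. Btg2 was at 100, 112 and 98.4 CPM against 117, 256 and 98.6 CPM. Its control mean rested on MxCre ETP 2, in which the sum of 18 immediate early and handling-response genes was 1327 CPM against 178 to 431 CPM in the other 5 libraries. Trp53 was lower in all 3 deleted libraries (136, 123 and 143 CPM) than in the controls (159, 159 and 165 CPM), with a log2 fold change of -0.26 (SE 0.199, edgeR adjusted p = 0.996). Groups did not overlap for 12.6% of all genes. Phlda3, a repressor of Akt, was too low to compare in ETP, at 5.63, 0.244 and 6.01 CPM against 3.30, 2.62 and 0 CPM.

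Tamoxifen deletion gave 0 calls among the 10 genes in either stage by edgeR. In DN3 cells edgeR called 0.0827% of 13298 genes, and 1 of the 10 had an unadjusted p under 0.05 (15.6% of all genes). That gene, Trp53inp1, was at 201, 227, 240 and 213 CPM in DeltaTamCre DN3 and at 128, 172, 166 and 149 CPM in TamCre DN3. The 4 deleted libraries were above the 4 controls, as was the case for 4.38% of all genes in that direction. The log2 fold change was 0.52 (SE 0.0985, 95% interval 0.30 to 0.73), with an adjusted p of 0.105 by edgeR and 0.000657 by DESeq2, which called 3.60% of genes. Over all alternatives the adjusted p ran from 0.000657 to 0.473. Of the marker sums only that of natural killer and innate lymphoid markers did not overlap, at 240 to 268 CPM in DeltaTamCre DN3 and 306 to 326 CPM in TamCre DN3, with Klrd1 at 0 in all 8 libraries, and its part was not tested. The kits of the pI-pC and tamoxifen DN3 libraries differ, so these values are set side by side only.

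The remaining 9 genes in tamoxifen DN3 had log2 fold changes from -0.14 (Trp53) to 0.18 (Zmat3). For Cdkn1a the 95% interval of the log2 fold change was -0.30 to 0.40, for Btg2 -0.08 to 0.33 and for Sesn1 -0.22 to 0.22. Cdkn1a was at 71.8, 60.7, 54.4 and 44.5 CPM in DeltaTamCre DN3 and at 41.8, 62.3, 57.1 and 62.3 CPM in TamCre DN3, with full overlap. TamCre DN3 1, the control with the lowest Cdkn1a, had a sum of immediate early genes of 2001 CPM against 242 to 495 CPM in the other 7 libraries.

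In tamoxifen ETP, where edgeR called 0 of 12924 genes (0%) and DESeq2 called 0 of the 10 (0.0472% of all genes), Btg2 had the only unadjusted p under 0.05 among them (4.95% of all genes). It was at 230, 80.8, 111 and 175 CPM in DeltaTamCre ETP and at 97.7, 103, 87.4 and 78.9 CPM in TamCre ETP. DeltaTamCre ETP 1 and 4 lay far above the controls and DeltaTamCre ETP 2 lay among them. Its log2 fold change was 0.70 (SE 0.281, 95% interval 0.07 to 1.32, edgeR adjusted p = 0.907). The first of those libraries had the highest sums of immediate early genes (1465 CPM, the other 7 libraries 287 to 985) and of natural killer and innate lymphoid markers (1255 CPM, the others 109 to 563), and the fourth the highest sum of 9 double-positive thymocyte markers (2723 CPM, the others 539 to 1467). Cdkn1a was at 5.09, 19.3, 6.91 and 9.37 CPM against 14.2, 9.66, 16.0 and 10.7 CPM, and Trp53inp1 at 245, 253, 364 and 502 CPM against 330, 193, 344 and 322 CPM. Both overlapped with their controls. DeltaTamCre ETP 1 also had the lowest sums of S-phase genes (2313 CPM, the other 7 libraries 3934 to 5487) and of mitosis genes (1651 CPM, the others 3610 to 5400). All 25 S-phase and all 25 mitosis genes had a log2 fold change below 0 in this comparison, with medians of -0.27 and -0.39 and 0 calls by edgeR or DESeq2. The part of cell cycle state and of other cells in these values was not tested.

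**Figure D2:**
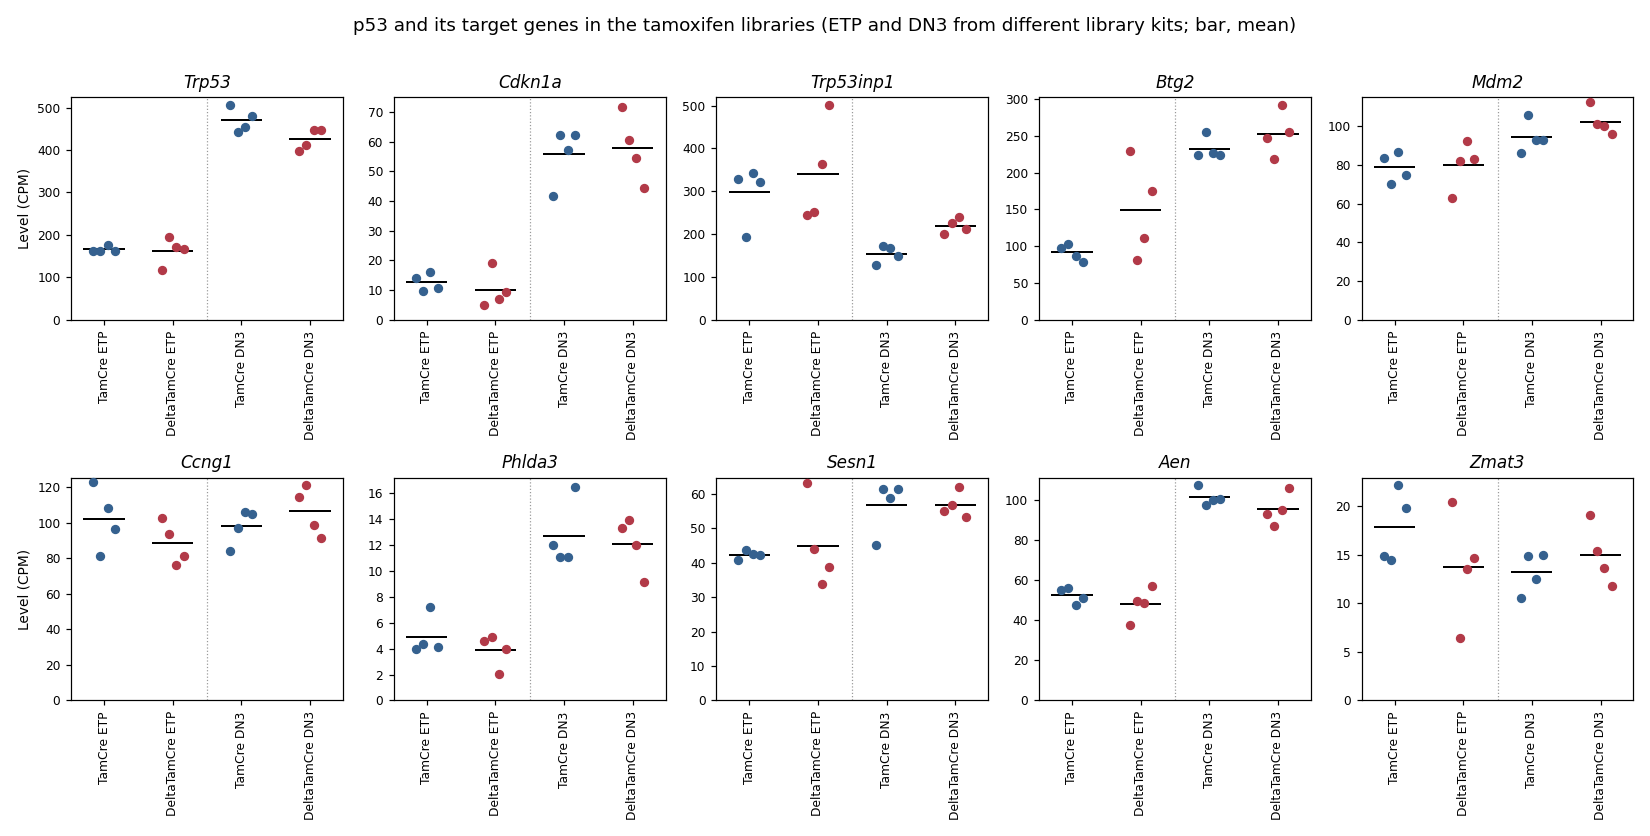
Level in CPM (y axis, from 0, a scale of its own for each gene) of the 10 genes in each tamoxifen library (x axis, group), with 1 point per library, TamCre in blue, DeltaTamCre in red and the group mean as a bar. ETP and DN3 libraries were made with different kits and are not compared; the 4 DeltaTamCre DN3 points of Trp53inp1 (201 to 240) lie above the 4 TamCre DN3 points (128 to 172).

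Seen gene by gene across the 6 comparisons, Trp53 mRNA had a log2 fold change below 0 in all 6, from -0.26 to -0.03, with 0 calls. Trp53inp1 was above 0 in all 6, from 0.20 to 0.63, with 1 call by edgeR and 3 by DESeq2. Mdm2, the direct feedback target, was above 0 in all 6 as well, but only from 0.02 to 0.37, with 0 calls by either tool. In DN3 cells the upper bound of its 95% interval was 0.38 after the antibody, 0.43 after pI-pC and 0.29 after tamoxifen. These shared directions did not all hold with 1 library left out. In tamoxifen ETP, Trp53 then reached 0.09, Trp53inp1 -0.05 and Mdm2 -0.05, and in antibody DN3 Mdm2 reached -0.02. Cdkn1a ranged from -0.48 to 0.79, Btg2 from -0.60 to 0.70, Sesn1 from -1.03 to 0.44 and Ccng1 from -0.21 to 0.14. Aen ranged from -0.51 to 0.20, Zmat3 from -0.38 to 0.33 and Phlda3 from -0.97 to 0.99, with both extremes of Phlda3 in ETP at low levels. The 10 genes had a median log2 fold change of 0.12 in antibody DN3 (all genes -0.01), -0.21 in pI-pC DN3 (-0.01) and 0.08 in tamoxifen DN3 (0.01). In ETP the medians were 0.26 for the antibody (all genes 0.01), 0.15 for pI-pC (-0.03) and -0.07 for tamoxifen (0.03).

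**Figure D3:**
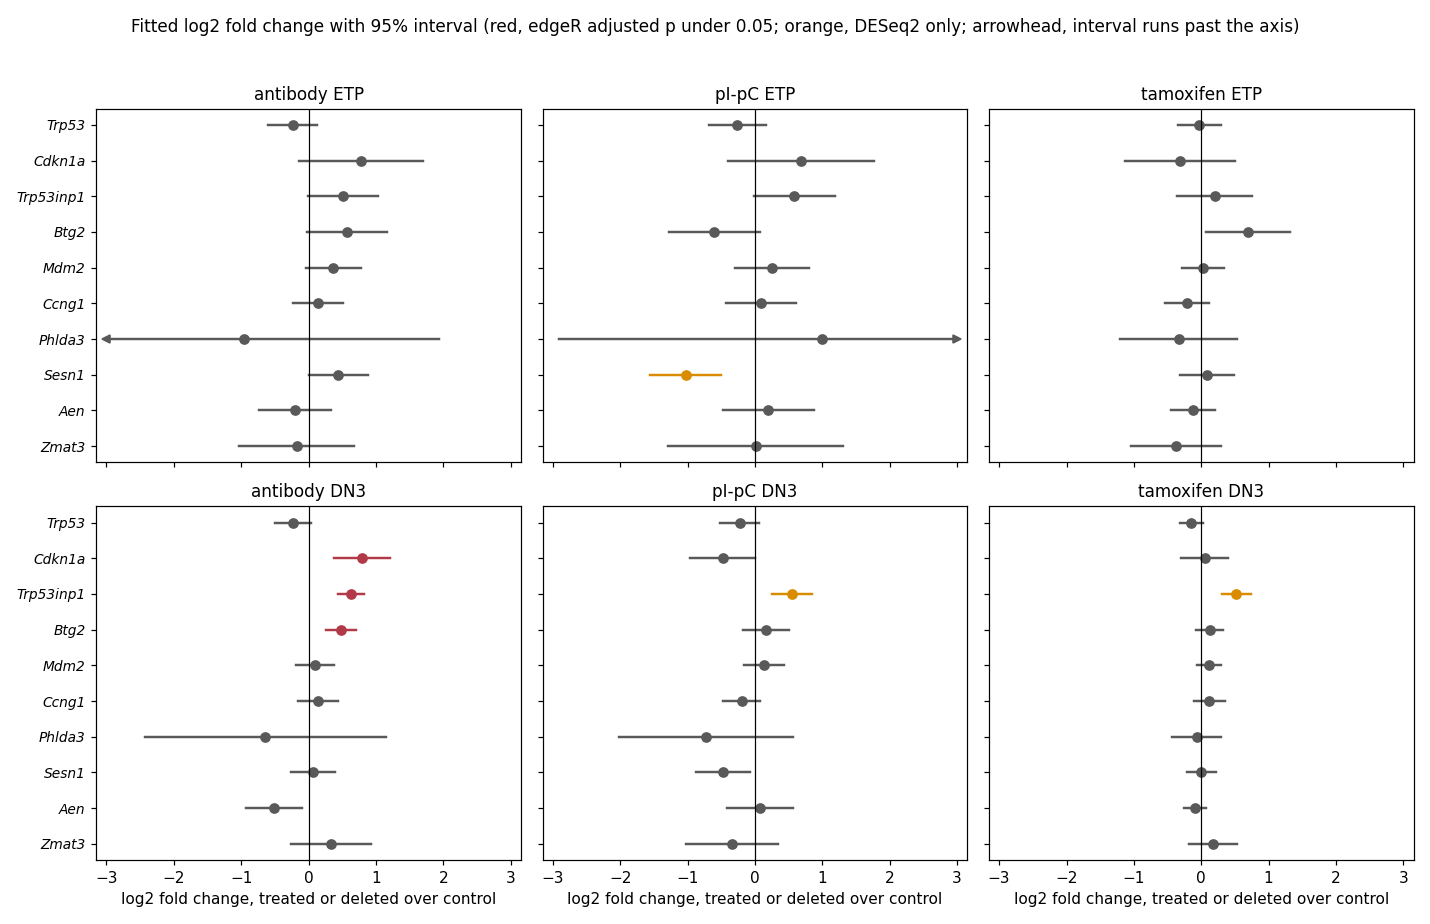
Fitted log2 fold change (x axis, treated or deleted over control) with its 95% interval for the 10 genes (y axis) in the 6 treated-control comparisons; red marks an edgeR adjusted p under 0.05, orange a DESeq2 adjusted p under 0.05 only, and arrowheads mark intervals that run past the axis. Trp53inp1 lies at 0.63, 0.55 and 0.52 in the 3 DN3 panels, while Cdkn1a lies at 0.79, -0.48 and 0.05.

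Whether Zmiz1 deletion by pI-pC and the Notch1 block differ in their effect was tested within the table they share. The effects were measured 8 weeks after pI-pC and 24 hours after the antibody, and pI-pC was given only in the deletion pair. Time and pI-pC exposure therefore cannot be told apart from the difference between deletion and block. Of the 10 genes 1 differed in DN3 cells, Cdkn1a, where edgeR called 1.23% of 13557 genes and DESeq2 2.36%. Its effect under deletion was 1.29 lower on the log2 scale than under the block, a difference of -1.29 (SE 0.295, 95% interval -1.89 to -0.68, edgeR adjusted p = 0.0209, DESeq2 adjusted p = 0.00145). Cdkn1a was the gene with 18.8, 18.3 and 16.3 CPM in the deleted and 62.2, 46.9 and 40.8 CPM in the AntiNRR libraries, each on its own side of its controls. The call was lost without any 1 of MxCre DN3 1, DeltaMxCre DN3 3, IgG DN3 2, IgG DN3 3 or AntiNRR DN3 1 (edgeR adjusted p 0.0566 to 0.0950), and with the spread of all 8 groups (0.774, 0.139% of all genes called). For Trp53inp1 the difference was -0.10 (95% interval -0.44 to 0.24) and for Btg2 -0.34 (-0.74 to 0.07). In ETP 0 of the 10 differed by edgeR (0.0820% of 13408 genes called) and 1 by DESeq2 (0.653%), and 2 of the 10 had an unadjusted p under 0.05 (6.40% of all genes). Sesn1, lower under deletion and higher under the block, had a difference of -1.46 (SE 0.312, 95% interval -2.10 to -0.81), with an adjusted p of 0.107 by edgeR and 0.000904 by DESeq2. The effect of pI-pC deletion was not called as different between ETP and DN3 for any of the 10 by edgeR or DESeq2 (0.00746% of 13406 genes by edgeR, 0.399% by DESeq2), and 1 had an unadjusted p under 0.05 (5.52% of all genes), Cdkn1a, at 1.17 (SE 0.552). For the antibody the same test also gave 0 of the 10 by both tools, with 0 at an unadjusted p under 0.05 (5.46% of all genes), and with 0 of 13603 genes (0%) called by edgeR and 0.0479% by DESeq2.

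Between the stages, Trp53 mRNA was higher in ETP, and the cell cycle inhibitors Cdkn1a and Btg2 were higher in DN3 cells, in the IgG controls. Of the 10 genes 3 were called there, 1 higher and 2 lower in ETP, with 14.7% of 12720 genes called. Trp53 was at 164, 136 and 154 CPM in IgG ETP and at 119, 98.9 and 103 CPM in IgG DN3, a log2 difference, ETP minus DN3, of 0.50 (SE 0.135, edgeR adjusted p = 0.0192). Every ETP library was above every DN3 library, but the call was lost without IgG ETP 1, IgG DN3 2 or IgG DN3 3, with an edgeR adjusted p between 0.0675 and 0.112. Cdkn1a was at 11.9, 7.31 and 11.4 CPM in IgG ETP against 29.0, 29.4 and 27.7 CPM in IgG DN3, a log2 difference of -1.48 (SE 0.293, edgeR adjusted p = 0.00273). Btg2 was at 155, 122 and 82.2 CPM against 254, 246 and 237 CPM, a log2 difference of -1.04 (SE 0.180, edgeR adjusted p = 0.00131). Neither gene's groups overlapped (33.3% of all genes did not), and both calls held when any single library was left out. Trp53inp1 was also lower in every ETP library, with a log2 difference of -0.40 (SE 0.162, edgeR adjusted p = 0.117). S-phase and mitosis genes were higher in these ETP libraries, with 15 and 14 of 25 called and medians of 0.87 and 1.18 on the log2 scale, and Rn45s took 8.92 to 13.8% of the counts in ETP and 2.75 to 3.74% in DN3. The part of these measures in the 3 calls was not tested.

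The MxCre controls gave 0 calls between stages among the 10 genes by edgeR (2.99% of 12399 genes called) and 0 by DESeq2 (8.31%), with 3 of the 10 and 16.7% of all genes at an unadjusted p under 0.05. Trp53 was at 159, 159 and 165 CPM in MxCre ETP and at 129, 125 and 112 CPM in MxCre DN3, a log2 difference of 0.43 (SE 0.175, edgeR adjusted p = 0.245). Mdm2 was at 74.4, 75.3 and 55.5 CPM against 121, 119 and 94.6 CPM, a log2 difference of -0.68 (SE 0.216, edgeR adjusted p = 0.145, and 0.0109 with the spread of all 8 groups, which called 10.3% of all genes). Sesn1 was at 92.4, 78.4 and 79.7 CPM against 57.6, 67.3 and 49.2 CPM, a log2 difference of 0.55 (SE 0.210). These 3 genes and Cdkn1a (-0.73, SE 0.367) had groups that did not overlap, against 24.3% of all genes. Btg2, called in the IgG controls, overlapped here. Its log2 difference was -0.29, and -0.85 to -0.05 with 1 library left out. Each stage comparison shares its control libraries with the treated-control comparisons above. Many fewer cells went into each ETP extraction than into each DN3 extraction, per the labels, and Rn45s took 14.8 to 16.3% of the counts in MxCre ETP and 6.76 to 8.82% in MxCre DN3. The part of these in the stage differences was not tested.

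Ordered by their mean over the 8 groups of the pI-pC and antibody table, the levels of Cdkn1a were highest in AntiNRR DN3 (49.97 CPM), which did not overlap with the next, IgG DN3 (28.7 CPM). IgG DN3 in turn did not overlap with MxCre DN3 (24.8 CPM), whereas the neighbours from MxCre DN3 down to IgG ETP (10.2 CPM) overlapped. Trp53inp1 and Btg2 were highest in AntiNRR DN3 as well, without overlap with the next group. The order of Trp53 ran from MxCre ETP (161 CPM) to AntiNRR DN3 (91.9 CPM), with the 4 ETP groups above the 4 DN3 groups and overlap between all neighbours. Mdm2, Ccng1, Phlda3, Sesn1, Aen and Zmat3 also overlapped between all neighbours. Divided by exon length, the mean level in IgG DN3 was 116 ± 5.30 CPM per kb for Trp53inp1, 89.6 ± 3.06 for Btg2, 30.9 ± 3.41 for Ccng1, 26.5 ± 2.57 for Trp53, 20.5 ± 2.17 for Mdm2, 14.7 ± 0.594 for Sesn1, 8.07 ± 0.243 for Cdkn1a, 7.56 ± 0.901 for Aen, 2.03 ± 0.734 for Phlda3 and 1.3 ± 0.0999 for Zmat3 (SD, n = 3). A processed pseudogene, Trp53-ps on chromosome 17, resembles Trp53, and how the counting treated reads that match both was not stated. Trp53 was at 443 to 506 CPM in TamCre DN3 and 161 to 176 CPM in TamCre ETP, libraries of different kits that are not compared.

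By the smallest root mean square difference of standardised group means over the 8 groups, the genes most like Cdkn1a were Sdr42e1 (0.167), Socs7 (0.241), Csnk1d (0.248), Dhx34 (0.266) and Zfp710 (0.314), among 12614 genes. Sdr42e1 was low, with group means from 1.39 to 5.37 CPM, and likeness was ranked without a test. Btg2 ranked 356 and Trp53inp1 ranked 803 by the same measure, and Trp53 ranked 12467. The genes most like Trp53 were Apex1 (0.132), Ptpn3 (0.136), Eef1g (0.144), Pla2g4a (0.148) and Qrsl1 (0.174), among 12632 genes. The means come from 8 groups that share a kit and, in pairs, their controls.

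Genes around p53 were counted from a list of 21 regulators and a list of 40 further targets. In antibody DN3, 2 of the 18 regulators tested were called and 1 of the 32 further targets, beside 5.61% of all genes. Chek1, the kinase that signals stalled replication to p53, was at 7.09, 14.0 and 11.3 CPM with AntiNRR and at 19.5, 29.8 and 19.8 CPM with IgG, without overlap (log2 fold change -1.11, SE 0.316, edgeR adjusted p = 0.0381). Ep300, an acetyltransferase that modifies p53, was at 322, 299 and 314 CPM against 262, 235 and 236 CPM (0.34, SE 0.0969, edgeR adjusted p = 0.0383). Ddb2, a DNA damage sensor of nucleotide excision repair, was at 44.2, 44.7 and 38.6 CPM against 22.0, 28.9 and 27.2 CPM (0.70, SE 0.206, edgeR adjusted p = 0.0481). The median log2 fold change was -0.10 for the regulators and -0.08 for the further targets, against -0.01 for all genes. In the other 5 treated-control comparisons edgeR called 0 genes of either list, and 0 to 1.44% of all genes. DESeq2 called 1 regulator in pI-pC DN3 (3.48% of all genes) and 1 in tamoxifen DN3 (3.60%), both as higher.

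**Figure D4:**
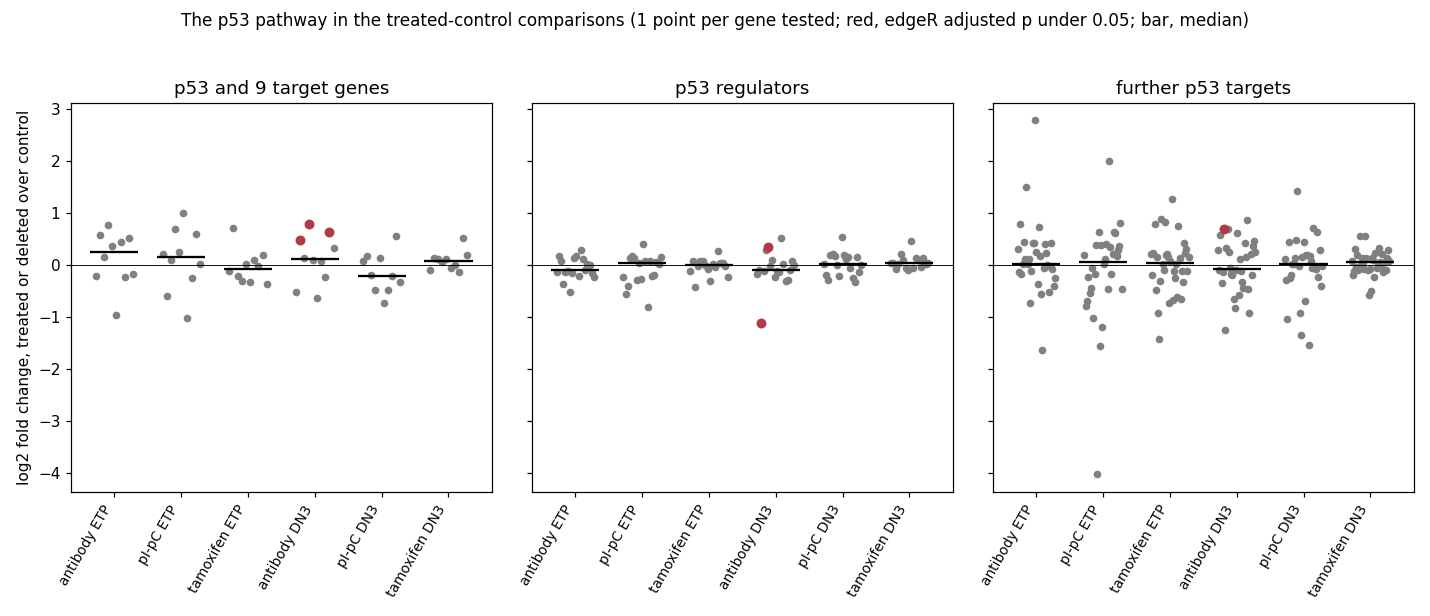
Fitted log2 fold change (y axis) of every tested gene in each treated-control comparison (x axis), for p53 and its 9 target genes, the regulators and the further targets; each point is a gene, bars are medians and red marks an edgeR adjusted p under 0.05. Red points stand only in antibody DN3, where 3 of the 10 genes, 2 regulators and 1 further target were called, beside 5.61% of all genes.

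Between the stages in IgG, 3 of 18 regulators and 4 of 30 further targets were called, beside 14.7% of all genes. Mdm4, the partner of Mdm2 that masks p53's activation domain, was at 59.2, 83.7 and 53.2 CPM in IgG ETP and at 138, 195 and 179 CPM in IgG DN3, a log2 difference of -1.39 (SE 0.180, edgeR adjusted p = 8.89e-05). It was lower in every ETP library. Usp7, which deubiquitinates Mdm2 and p53, was lower in ETP as well (-0.40, edgeR adjusted p = 0.0393), and Rpl5, a ribosomal protein that can restrain Mdm2, was higher (0.56, edgeR adjusted p = 0.00702). Of the further targets Btg1, Fbxw7 and Trp53i11 were lower in ETP (-0.72, -0.66 and -0.83) and Psrc1 was higher (2.26), with edgeR adjusted p-values of 0.0148 to 0.0293. In the MxCre controls edgeR called 0 genes of either list (2.99% of all genes). DESeq2 called 1 regulator and 2 further targets as lower in ETP, beside 8.31% of all genes in either direction. Mdm4 was also the 1 regulator of 18 tested that was called between deletion and block in DN3 cells, beside 1.23% of all genes. It was at 160, 193 and 161 CPM in DeltaMxCre, 113, 129 and 112 CPM in MxCre, 135, 159 and 148 CPM in AntiNRR and 138, 195 and 179 CPM in IgG. It was higher in every DeltaMxCre library than in every MxCre library, while AntiNRR and IgG overlapped, and the difference of the effects was 0.75 (SE 0.186, edgeR adjusted p = 0.0410).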

How the data were processed

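RNA-seq of 40 libraries in 12 groups of sorted mouse thymocytes was analysed from the deposited tables of counts per gene symbol. Per the submitters' processing notes, the build was mm10 and the tools included Cuffdiff 2.1.1, Cufflinks, TopHat2 2.0.9, FastQC 0.10.0 and Bowtie2 2.1.0.0; their roles, the annotation and the use of strand are not given in the sources used here. The deposited values were treated as estimated counts, since 0.712% to 1.19% of them were more than 0.01 from a whole number. They were rounded before testing, and how they were counted is not stated. Groups were taken from the sample titles, and the 10 genes and both lists of further p53 genes were chosen with earlier results of these data known.

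Fits held only the groups compared and were run in R 4.3.3 with edgeR 4.0.16 and limma 3.58.1: filterByExpr (minimum count 10, minimum total 15), TMM scaling, and a robust quasi-likelihood F test over all genes, with calls at an adjusted p (Benjamini-Hochberg) under 0.05. The filter kept all 10 genes in all 12 comparisons, which were 6 treated-control, 2 stage and 4 interaction tests. Alternatives were DESeq2 1.42.0, DESeq2 size factors, no filter beyond 1 count, a mean of at least 10 counts, a spread shared by all 8 groups (or no robust estimation for tamoxifen), the replicate number as a block, and leaving out each library. The test was tried on simulated data. Within groups, the counts of library pairs differed by a chi-square of at least 18.0 per degree of freedom, so no library was a copy of another in its group. Pairs across groups were not compared, and this does not show whether libraries came from separate mice. Named genes are the 10, called members of the lists (at most 6 per comparison), Zmiz1, Dtx1 and the 5 nearest in profile to Cdkn1a and to Trp53. Exon lengths are from GENCODE M21 (GRCm38) and promoters from RefSeq. Precision is limited by 3 or 4 libraries per group.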

Additional observations from a re-analysis of the deposited data

Results flagged for a closer look

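Within groups of 4 libraries, 1 value stood apart from the others in 5 of the 40 gene and group sets tested, and chance flags about 1 set in 20. Trp53 was at 176 CPM in TamCre ETP 3 and at 161 to 163 CPM in the other TamCre ETP libraries. Trp53inp1 was at 193 CPM in TamCre ETP 2, below 322 to 344 CPM in the others. Phlda3 was at 7.19 CPM in TamCre ETP 3, above 3.95 to 4.33 CPM. In TamCre DN3, Btg2 was at 256 CPM in library 2, above 224 to 227 CPM, and Sesn1 at 45.0 CPM in library 1, below 58.8 to 61.4 CPM. All 5 were control libraries.

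The effect of pI-pC deletion of Zmiz1 on Cdkn1a in DN3 cells differed from that of the Notch1 block by -1.29 on the log2 scale (SE 0.295, edgeR adjusted p = 0.0209), with Cdkn1a lower in all 3 deleted libraries and higher in all 3 AntiNRR libraries than in their controls. The call was lost in 5 of the 12 fits with 1 library left out, and with the spread of all 8 groups (edgeR adjusted p = 0.774). The fall under deletion alone was not called by edgeR. Deletion and block also differ in time and in pI-pC exposure.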

How the results depend on the processing

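Of the effects of the 10 genes recomputed under the alternatives, 1691 kept their side of the threshold, 17 lost a call, 9 gained one and 3 reversed. Uncalled changes of sign by no more than 1 SE of the main fit are among the 1691, and the 3 reversals were larger. The reversals were uncalled: with 1 library left out, Btg2 in pI-pC DN3 ran from -0.0019 (without MxCre DN3 3) to 0.27, Sesn1 in tamoxifen ETP from -0.13 (without DeltaTamCre ETP 1) to 0.20, and Ccng1 in antibody DN3 from -0.018 (without AntiNRR DN3 1) to 0.28. DESeq2 size factors and the filter at a mean of 10 counts changed no count of the 10 genes called. The spread shared by 8 groups took antibody DN3 from 3 called to 0 and the deletion minus block difference in DN3 from 1 to 0, and gave 1 in pI-pC ETP, in MxCre between stages and in the deletion minus block difference in ETP. DESeq2 gave 1 in pI-pC ETP, pI-pC DN3, tamoxifen DN3 and the deletion minus block difference in ETP, and no filter beyond 1 count gave 1 in pI-pC DN3. Leaving out 1 library gave 1 to 3 calls in antibody DN3, 2 to 3 between stages in IgG, 0 to 1 for the deletion minus block difference in DN3 and 0 in the others. Causes were not tested.

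Deviations of same-numbered libraries had correlations from -0.534 to 0.223. With so few libraries per group, these values cannot show whether ETP and DN3 libraries with the same number came from the same mouse. The labels do not say so, and the main fits did not pair the libraries. With the replicate block, 1 gene was called in pI-pC DN3 (Trp53inp1, log2 fold change 0.56, edgeR adjusted p = 0.0448) in place of 0, and the count was the same in the other comparisons.

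Counts over all genes moved by more than 1.5 times under some settings. DESeq2 called 100 in place of 5 in pI-pC ETP, 492 for 183 in pI-pC DN3, 8 for 0 in tamoxifen ETP, 419 for 11 in tamoxifen DN3, 21 for 0 in antibody ETP, 1145 for 371 in MxCre between stages, 56 for 1 and 7 for 0 in the stage differences of pI-pC and antibody, and 90 for 11 and 338 for 167 in the deletion minus block differences in ETP and DN3. The shared spread gave 175, 20, 6 and 69 in pI-pC ETP, pI-pC DN3, antibody ETP and antibody DN3, 1474 and 936 between stages in MxCre and IgG, 7 in the stage difference of pI-pC, and 77 and 20 in the deletion minus block differences. No filter beyond 1 count gave 18, 347 and 8 in pI-pC ETP, pI-pC DN3 and antibody ETP. The block gave 14 in pI-pC ETP, 0 in tamoxifen DN3, 663 in MxCre between stages and 0 in the stage difference of pI-pC. Leaving out 1 library gave 12 to 403 in pI-pC DN3 (81 without MxCre DN3 1, 403 without MxCre DN3 3, 15 without DeltaMxCre DN3 2, 12 without DeltaMxCre DN3 3), 351 to 677 for 710 in antibody DN3 (353 without IgG DN3 2, 351 without IgG DN3 3) and 941 to 1883 for 1873 between stages in IgG (993 without IgG DN3 2, 941 without IgG DN3 3). It gave 135 to 735 between stages in MxCre, where leaving out any library but MxCre ETP 3 moved the count by more than 1.5 times, and 99 to 290 for the deletion minus block difference in DN3 (290 without MxCre DN3 3, 99 without IgG DN3 2, 101 without IgG DN3 3). The ranges were 0 to 17 in pI-pC ETP, 0 to 1 in tamoxifen ETP, 0 to 8 in tamoxifen DN3, 0 to 5 in antibody ETP, 0 to 12 and 0 to 3 in the stage differences of pI-pC and antibody, and 5 to 26 for the deletion minus block difference in ETP.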
